A study of Mus musculus with 8 samples.

Results

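The claudin genes of bipotential mouse embryonic liver (BMEL) cells were followed after forced expression of GRHL2, a transcription factor of epithelial cells. The 10 claudins considered were Cldn1, Cldn2, Cldn3, Cldn4, Cldn6, Cldn7, Cldn9, Cldn12, Cldn15 and Cldn23, found by symbol. Rows were found for 8 of them among the 18671 genes of the expression table, and Cldn1 and Cldn3 are not among its rows. The table holds 6 further claudins, namely Cldn8, Cldn11, Cldn14, Cldn18, Cldn22 and Cldn34c1, which brings the family to 14 rows.

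The RNA of 8 BMEL cultures had been sequenced, each collected 48 h after a plasmid was introduced. In 4 samples the cells had received a plasmid that encodes human GRHL2 with a Flag tag, driven by the EEF1A1 promoter, together with enhanced green fluorescent protein. The 4 control samples had received the pcDNA3 vector, so that the plasmids differed by more than GRHL2. Each group carries the replicate numbers 1 to 4, described as independent biological replicates. BMEL cells are an embryonic liver line that can take the hepatocyte or the cholangiocyte path, and all samples were grown on collagen with EGF, IGFII and insulin. Each value was taken to be an rlog value from which log2 transcript length had been subtracted, a reading that the low end of the table bears out across lengths, so that levels of different genes can be compared. The rlog, or regularized logarithm, is on the log2 scale and pulls samples together for genes with few reads, and differences of low genes are therefore understated. Sequencing depth per sample is unknown.

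Claudins are small membrane proteins that join end to end into the strands of tight junctions, the seams that close the space between neighbouring epithelial cells. Their extracellular loops decide whether a strand seals that space or forms a pore for selected ions, and their cytoplasmic tails mostly bind ZO scaffold proteins. In the liver they keep bile apart from blood, along bile canaliculi and in bile ducts. Claudin-4 and other junction proteins are known products of genes that grainyhead factors such as GRHL2 bind in epithelia.

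Upstream sequences are shown for Cldn4, the claudin with the largest difference between the groups, and for Cldn2, the claudin with the highest mean level in control cells. Each is the 250 bases before the RefSeq start site on GRCm38.p6, written 5′ to 3′ on the strand of the gene, at chr5:134946935-134947184 (minus strand) for Cldn4 and chrX:139800558-139800807 (plus strand) for Cldn2. Capitals mark the letters ACNGGT or their reverse complement ACCNGT, the inner part of the palindrome AACCGGTT to which grainyhead factors are known to bind.
Cldn4: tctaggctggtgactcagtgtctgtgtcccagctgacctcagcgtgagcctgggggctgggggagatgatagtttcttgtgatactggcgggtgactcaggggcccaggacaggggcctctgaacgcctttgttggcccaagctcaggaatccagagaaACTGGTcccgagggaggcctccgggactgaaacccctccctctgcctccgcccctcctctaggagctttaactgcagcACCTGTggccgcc
Cldn2: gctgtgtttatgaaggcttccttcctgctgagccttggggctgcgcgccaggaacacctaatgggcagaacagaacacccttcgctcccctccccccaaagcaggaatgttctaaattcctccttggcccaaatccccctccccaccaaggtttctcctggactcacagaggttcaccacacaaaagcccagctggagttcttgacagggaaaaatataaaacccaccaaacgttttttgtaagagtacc

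The Cldn4 window held 2 matches, whose first bases lie 91 and 13 bases before the start site. The Cldn2 window held 0 matches. The 6-letter core is frequent, as 24.1% of the 32851 RefSeq windows of the same length hold it on one strand or the other (chromosome 18 left out). The longer forms were rarer, with AACNGGTT or its reverse complement in 1.79% of the windows and AACCGGTT in 0.116%, and neither was found in any of the 19 windows of 13 claudins. Windows with the core were found for 5 of these 13 claudins, namely Cldn4, Cldn6, Cldn7, Cldn12 and Cldn14. A match describes letters only, and binding was not measured in these samples.

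Before any difference is given, the claudins differed widely in level. In control cells Cldn2 and Cldn6 stood highest, at 10.46 ± 0.46 and 10.33 ± 0.16 (SD, n = 4), followed by Cldn12 at 9.63 ± 0.035. These 3 claudins made up between 95.5% and 96.7% of the summed linear level of the 14 claudins in the control samples. Cldn2, whose protein forms a pore for cations and water, lay above Cldn6 in 2 of the 4 control samples and below it in the others, so the order of these claudins was not settled. Cldn12 lay below both and above Cldn4, with no overlap of samples. Cldn4 stood at 5.87 ± 0.10 and Cldn15 at 4.35 ± 0.11, and Cldn15 overlapped with Cldn34c1 and Cldn18 in control cells. Cldn23, Cldn22, Cldn9 and Cldn7 followed in this order, each apart from the next in all control samples. Cldn14, Cldn8 and Cldn11 were the lowest.

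The distance of each gene from the low end of the table shows how much room the rlog left for a difference. The 1st percentile of all genes, after adding the log2 of mean transcript length in kb, served as the lower limit. Cldn2, Cldn6 and Cldn12 lay 10.78, 10.69 and 10.26 above it on this log2 scale, Cldn4 lay 7.26 above it and Cldn15 4.45. Cldn23 was 2.55, Cldn9 1.93 and Cldn7 only 0.72 above the limit. The last 3 claudins are therefore measured in a range where differences between samples are strongly shrunk.

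Comparing cells with GRHL2 to control cells, Cldn4, Cldn6 and Cldn23 rose and Cldn15 fell. Thus 4 of the 8 claudins passed the test (limma, adjusted p under 0.05), 3 upward and 1 downward. Among all 18671 genes, 16.4% passed it, 10.5% upward and 5.91% downward. The remaining 4 were Cldn2, Cldn7, Cldn9 and Cldn12. The claudins were chosen with earlier results of these data known, so the counts are a description and not a test of the family. The median difference of the 8 claudins was 0.090 on the log2 scale and that of all genes 0.0066. With samples set to an equal upper quartile, calls among all genes were upward in 75.9%, and with samples set to an equal sum in 77.0%, against 63.9% as deposited. With the replicate number as a block the share upward was 56.7%, and among genes with a mean of at least 5 it was 44.3%.

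**Figure D1:**
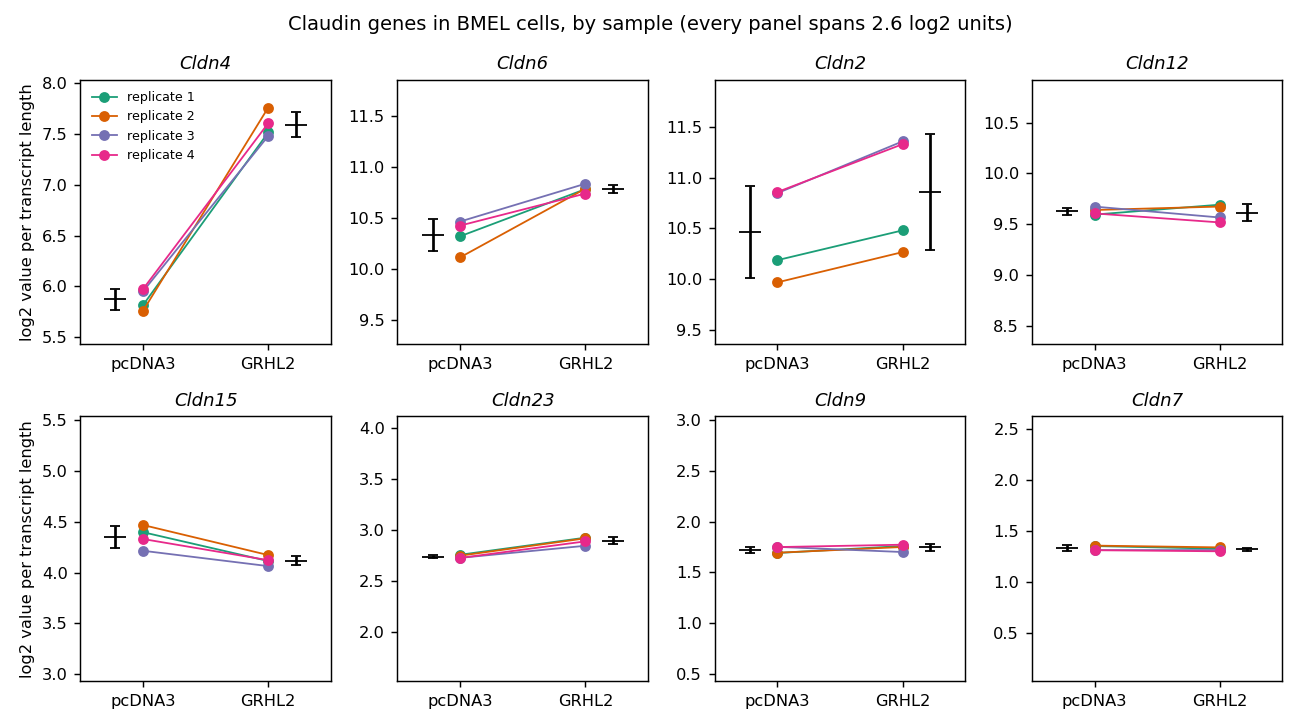
Log2 value relative to transcript length (vertical axis, 2.6 log2 units in every panel) of 8 claudins in pcDNA3 and GRHL2 samples of BMEL cells, with lines joining samples of the same replicate number and black bars for the mean and SD of each group (n = 4). Cldn4 moved from between 5.76 and 5.97 to between 7.48 and 7.76, whereas Cldn2 was split by replicate number in both groups.

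Cldn4 encodes a sealing claudin that also serves as the receptor of Clostridium perfringens enterotoxin. The gene (ENSMUSG00000047501; GRCm38 chromosome 5, 134945119 to 134946934, minus strand) consists of 1 exon and overlaps no other annotated gene. Control samples 1 to 4 had values of 5.82, 5.76, 5.95 and 5.97, and GRHL2 samples 7.51, 7.76, 7.48 and 7.60. The lowest GRHL2 sample was thus far above the highest control sample. The difference was 1.71 on the log2 scale (95% confidence interval 1.55 to 1.88, adjusted p = 3.24e-06, limma), a 3.28-fold increase. The differences within same-numbered pairs were 1.698, 1.999, 1.529 and 1.632, and their mean was 1.85 for pairs 1 and 2 against 1.58 for the others.

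Grhl2 itself, by mouse symbol, was higher by 1.61, 2.38, 1.23 and 1.61 in the same 4 pairs. Part of this row may hold reads of the human cDNA, which cannot be told apart here. Pairs 2 and 3, which had the largest and the smallest difference of Grhl2, also had the largest and the smallest difference of Cldn4. Of the genes given below, this also held for Cldn23, Prss8 and Marveld2. It did not hold for Cldn6, Epcam, Spint1 and Ocln, whose smallest difference was in pair 4. No correlation was computed over 4 pairs. As whole cultures were sequenced, a modest rise in every cell and a larger rise in the transfected cells alone cannot be told apart, and likewise fewer cells of a type and less RNA per cell.

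Cldn6, a claudin of embryonic epithelia, was already abundant before GRHL2 and rose further. The gene (ENSMUSG00000023906; GRCm38 chromosome 17, 23679249 to 23682446, plus strand) had control values of 10.32, 10.11, 10.46 and 10.42 and GRHL2 values of 10.78, 10.79, 10.84 and 10.74. The groups did not overlap, and the GRHL2 samples spanned only 0.097 against 0.35 for the control samples. The difference was 0.46 (95% confidence interval 0.29 to 0.62, adjusted p = 0.00286, limma), or 1.37-fold. Within same-numbered pairs it ranged from 0.32 to 0.68.

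Cldn9 is the neighbour and close relative of Cldn6 (ENSMUSG00000066720; GRCm38 chromosome 17, 23682584 to 23684026, minus strand). The genes face each other with their 3′ ends 138 bases apart, and counting did not use strand, although their annotated exons do not overlap. Cldn9 had control values of 1.69, 1.69, 1.75 and 1.75 and GRHL2 values of 1.76, 1.75, 1.70 and 1.77, so that the groups overlapped. The difference of 0.024 had a 95% confidence interval from -0.027 to 0.076 (adjusted p = 0.521, limma). Cldn9 thus lay more than 8 log2 units below Cldn6 in every sample, near the low end of the table.

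Cldn23, a claudin of stomach and colon epithelium, had control values of 2.76, 2.75, 2.73 and 2.73 and GRHL2 values of 2.92, 2.92, 2.85 and 2.89. The groups did not overlap. The gene (ENSMUSG00000055976; GRCm38 chromosome 8, 35824712 to 35826559, minus strand) rose by 0.16 (95% confidence interval 0.10 to 0.21, adjusted p = 0.00277, limma). Its level is close to the lower limit of the table, so this difference is shrunk.

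Cldn15, which forms a cation pore in the intestine, was the claudin that fell. The gene (ENSMUSG00000001739; GRCm38 chromosome 5, 136966616 to 136975858, plus strand) had control values of 4.40, 4.47, 4.21 and 4.33 and GRHL2 values of 4.11, 4.17, 4.06 and 4.12. No sample of one group lay within the range of the other, and Cldn15 was lower in each of the 4 pairs. The difference was -0.23 (95% confidence interval -0.35 to -0.12, adjusted p = 0.0145, limma), which is 0.850-fold. With each sample left out in turn it ranged from -0.28 to -0.20.

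Of the 8 claudins, 3 had non-overlapping groups upward and 1 downward, and among all genes for 14.3% upward and 9.47% downward, or 23.8% together.

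Cldn2 was split by replicate number, and this split was larger than its difference between groups. The gene (ENSMUSG00000047230; GRCm38 chromosome X, 139800828 to 139811386, plus strand) had control values of 10.19, 9.97, 10.85 and 10.86 and GRHL2 values of 10.48, 10.27, 11.36 and 11.33. Replicates 3 and 4 were higher than replicates 1 and 2 by 0.77 in control samples and by 0.97 in GRHL2 samples. Only 9 of the 18671 genes were shifted further than Cldn2 in both groups. The labels name no batch, and what separates these replicates was not tested.

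The mean difference of Cldn2 between groups was 0.39 (95% confidence interval -0.25 to 1.03, adjusted p = 0.390, limma), which did not pass the test. Each GRHL2 sample was nevertheless higher than the control sample of its number, by 0.29, 0.30, 0.51 and 0.47. With the replicate number as a block, which removes the shared split, the same difference had a 95% confidence interval of 0.29 to 0.50 and an adjusted p of 0.000403 (limma). Pairs 1 and 2 gave a mean of 0.30, the others 0.49. Under the block, 4 of the 8 claudins were called upward and 1 downward, against 18.2% and 13.9% of all genes (32.1% together).

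Cldn12 and Cldn7 did not pass the test, with or without the block. Cldn12, an unusual claudin whose tail lacks the PDZ-binding end of its relatives, had control values of 9.60, 9.64, 9.67 and 9.61 and GRHL2 values of 9.69, 9.67, 9.57 and 9.52. The gene (ENSMUSG00000046798; GRCm38 chromosome 5, 5489537 to 5514958, minus strand) differed by -0.016 (95% confidence interval -0.13 to 0.0995, adjusted p = 0.868, limma). It was higher with GRHL2 in pairs 1 and 2 and lower in pairs 3 and 4. With samples set to an equal upper quartile or an equal sum, the sign of this small difference changed.

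Cldn7, which binds EpCAM at the lateral membrane, lay near the lower limit of the table in both groups. The gene (ENSMUSG00000018569; GRCm38 chromosome 11, 69964779 to 69967885, plus strand) had control values of 1.352, 1.357, 1.312 and 1.312 and GRHL2 values of 1.326, 1.339, 1.313 and 1.301. The difference was -0.013 (95% confidence interval -0.052 to 0.026, adjusted p = 0.652, limma), and its sign also changed with the scaling of samples. At this level the rlog can hide a change, and none was detectable.

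**Figure D2:**
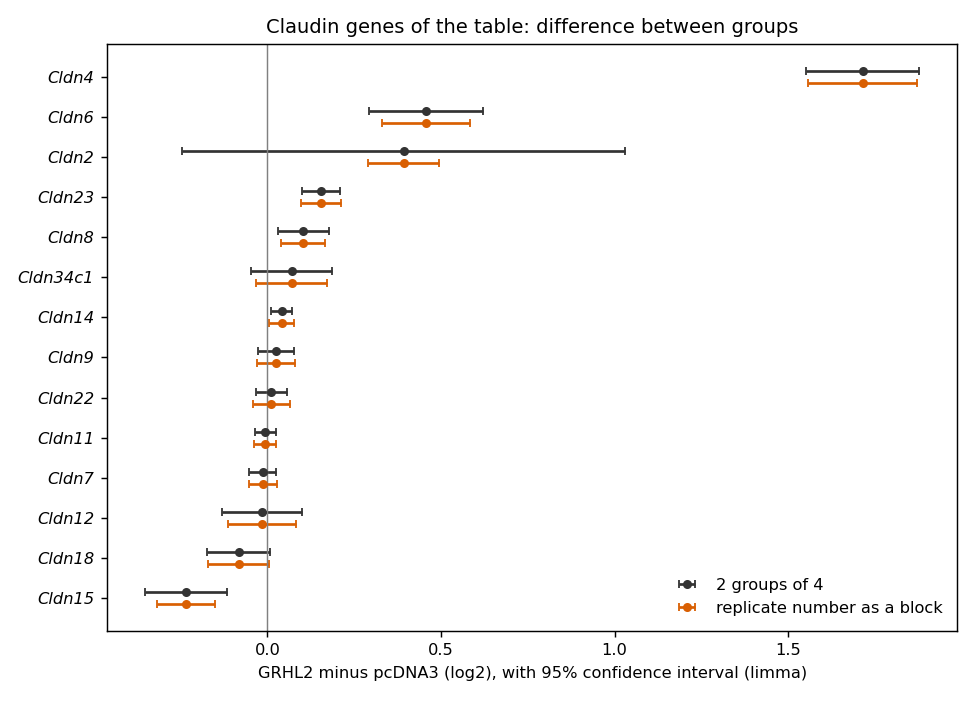
Difference between GRHL2 and pcDNA3 samples (log2, horizontal axis) for the 14 claudins of the table, with 95% confidence intervals from limma for 2 groups of 4 samples (black) and with the replicate number as a block (orange). The block narrowed the interval of Cldn2 from -0.25 to 1.03 down to 0.29 to 0.50 and left that of Cldn4 nearly as it was.

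Of the 6 other claudins of the table, 0 passed the test (limma), and 2 had an unadjusted p under 0.05, as did 31% of all genes. These were Cldn8 and Cldn14, both close to the lower limit, whose groups did not overlap. Cldn8, a claudin of the distal nephron and gut, had control values within 0.0049 of each other, with a mean of 0.80, and GRHL2 values of 0.85, 0.85, 0.89 and 1.02 (difference 0.10, adjusted p = 0.0605, limma). With the replicate block its adjusted p was 0.0224. Cldn14, known from the inner ear and kidney, had a difference of 0.041 (adjusted p = 0.0692, limma). Cldn11, Cldn18, Cldn22 and Cldn34c1 had differences from -0.083 to 0.069, all with overlapping groups. The single exon of Cldn22 overlaps exons of Wwc2, so its reads are uncertain under counting without strand. With samples set to an equal upper quartile or an equal sum, Cldn8 and Cldn14 were called upward.

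The make-up of the claudin transcripts was then described from linear values, as the share of each claudin in the sum over the 14 rows of each sample. The share of Cldn4 was 1.68%, 1.78%, 1.47% and 1.51% in control samples 1 to 4 and 4.27%, 5.27%, 3.27% and 3.68% in GRHL2 samples. Every GRHL2 sample thus had a larger share of Cldn4 than every control sample, but Cldn4 remained a minor claudin. The share of Cldn12 was 21.9% ± 3.5 (SD, n = 4) in control samples and 16.7% ± 3.3 (SD, n = 4) in GRHL2 samples. These ranges overlapped, but the share was lower with GRHL2 in each of the 4 pairs, with differences from -6.36 to -3.71 percentage points, while the level of Cldn12 itself did not pass the test. The share of Cldn6 was 35.3% ± 2.4 and 37.5% ± 5.4 (SD, n = 4), and that of Cldn2 39.0% ± 6.0 and 40.0% ± 9.7 (SD, n = 4). For both, replicates of 1 group differed more than the groups did, and 2 pairs were higher and 2 lower. The log2 of the summed level ran from 11.57 to 12.04 in control samples and from 12.01 to 12.42 in GRHL2 samples, and it was higher with GRHL2 in each of the 4 pairs, by 0.35 to 0.43. Since rlog values are shrunk, these shares are approximate.

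**Figure D3:**
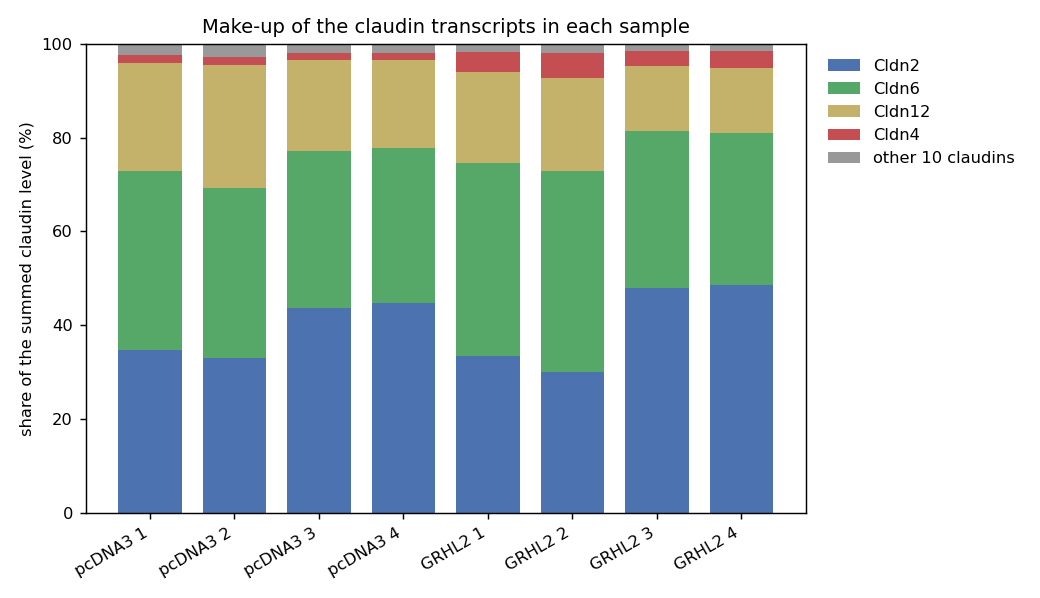
Share of the summed linear claudin level (vertical axis, percent) in each of the 8 samples, stacked by gene for Cldn2, Cldn6, Cldn12, Cldn4 and the other 10 claudins together. The red band of Cldn4 covers 1.47% to 1.78% of the sum in control samples and 3.27% to 5.27% in GRHL2 samples.

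In GRHL2 samples the order of the claudins stayed as in control cells at the top, with Cldn2 and Cldn6 overlapping and Cldn12 below them. The gap between Cldn12 and Cldn4 was 3.76 log2 units in control cells and 2.02 in GRHL2 cells. The gap between Cldn4 and Cldn15 was 1.52 and 3.47. Cldn15 lay above Cldn34c1 in 3 of 4 control samples and below it in all 4 GRHL2 samples.

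To see which genes had the pattern most like Cldn4, every gene was centred on its control mean, and the root mean square difference from Cldn4 over the 8 samples was taken. Among the 5 nearest genes outside the family were Epcam (0.061), Prss22 (0.16), Lama3 (0.20) and Tchh (0.23), with differences between groups from 1.51 to 1.75. They encode an epithelial adhesion protein, a serine protease, a laminin chain and a structural protein of hair follicles. For Cldn2 the nearest were Slc16a12 (0.084), Sema4g (0.084), Lbp (0.092), Mycn (0.104) and Sptssb (0.109). These encode a monocarboxylate transporter family member, a semaphorin, the lipopolysaccharide-binding protein, a MYC transcription factor and a subunit of serine palmitoyltransferase. Their differences between groups ran from 0.33 to 0.46.

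Claudin strands work together with other proteins, and 30 such partners were found in the table, 1 of them (Pals1) under its older symbol Mpp5. They comprise 24 genes of the tight junction and of cell polarity, and 6 genes of EpCAM and of the proteases and inhibitors around it. Of these, 9 rose and 1 fell, while 20 did not pass the test (limma, against 10.5% and 5.91% of all genes upward and downward). The partners were chosen with earlier results of these data known, so these counts are a description and not a test of the list. The 6 genes around EpCAM gave 5 of the upward calls. Of the other 24, 4 rose (16.7%) and 1 fell (4.17%), and with the replicate block 8 were called upward and 4 downward, against 18.2% and 13.9% of all genes. Over all 30, the block gave 13 upward and 4 downward, including the 10 called without it. The median difference of the partners was 0.069.

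Among the MARVEL proteins, which sit in the strands beside claudins, Ocln (occludin) had control values of 5.95, 5.84, 5.91 and 6.12 and GRHL2 values of 6.51, 6.65, 6.61 and 6.53. The groups lay apart, with a difference of 0.62 (adjusted p = 0.000304, limma). Marveld2, which encodes tricellulin of the corners between cells, rose by 0.45 (adjusted p = 0.000986, limma), whereas Marveld3 had a difference of 0.013. The ZO scaffolds that bind claudin tails did not move together. Tjp1 (ZO-1) had control values of 11.88, 11.93, 11.70 and 11.68 and GRHL2 values of 11.70, 11.59, 11.51 and 11.49, a difference of -0.22 with an adjusted p of 0.0603 (limma). With the replicate block its adjusted p was 0.00204, and Tjp1 was lower in each of the 4 pairs although the groups overlapped. With each sample left out in turn, its adjusted p ran from 0.0473 to 0.153 (limma). It was under 0.05 only without GRHL2 replicate 1 (0.0474) or without pcDNA3 replicate 4 (0.0473).

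The largest differences among the partners were in the group around EpCAM, a protein that holds claudin-7 at the lateral membrane and can be cut by membrane proteases. Epcam went from control values of 6.39, 6.40, 6.42 and 6.51 to GRHL2 values of 8.13, 8.31, 8.13 and 8.14 (difference 1.75, adjusted p = 4.59e-07, limma). Spint1, an inhibitor of such proteases, rose by 1.18 (adjusted p = 2.90e-05, limma). Prss8 (prostasin) rose by 0.62 (adjusted p = 9.79e-05, limma), with pairs between 0.58 and 0.64. The other called partners, named after their values were seen, were Tjp3, Crb3, Spint2 and St14 upward and Mpp5 downward, with differences from -0.34 to 0.50. None of the 4 immunoglobulin-like adhesion proteins, 3 angulins, 2 cingulins or 4 multi-PDZ scaffolds passed the test without the block. With it, 2 adhesion proteins and 1 multi-PDZ scaffold were called upward and 1 angulin downward, against 32.1% of all genes called in either direction.

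**Figure D4:**
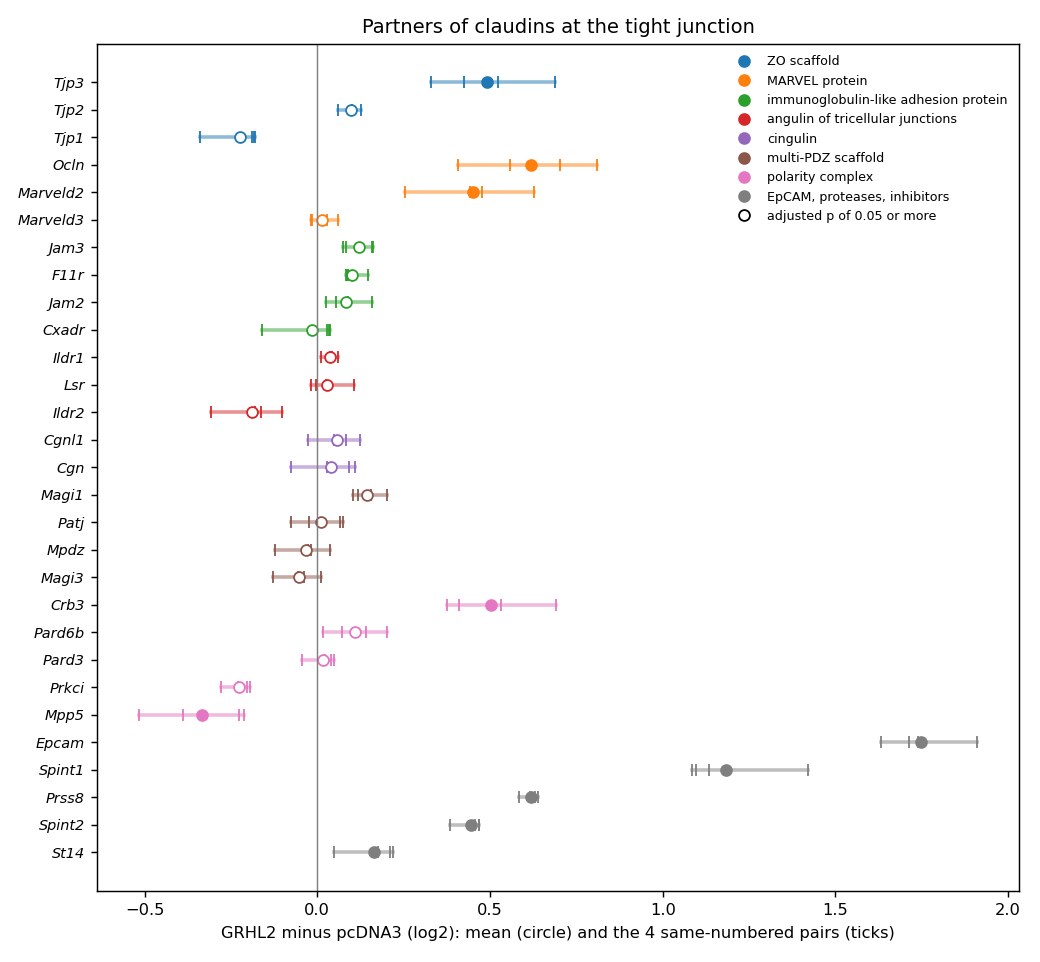
Difference between GRHL2 and pcDNA3 samples (log2, horizontal axis) for 29 of the 30 partners of claudins, as the mean (circle, filled where the adjusted p of limma was under 0.05) and the 4 same-numbered pairs (ticks), coloured by role. Epcam, at 1.75, and Spint1, at 1.18, lie apart from the rest, and the ZO scaffolds lie on both sides of 0.

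Markers of the cell types that the line could become or hold were used to check the cells. Of 15 hepatoblast and biliary markers 14 were in the table, Dlk1 not being among its rows. Their control means ran from 1.80 for Onecut1 to 15.31 for Krt8, with Hnf4a at 11.16, Sox9 at 6.64 and Prox1 at 4.56. The 5 hepatocyte genes in the table ran from 0.22 for Tat to 5.25 for Alb. The log2 of the summed mesenchymal markers, led by Vim, ran from 15.28 to 15.45 in control samples and from 14.94 to 15.06 in GRHL2 samples, with 3 of 10 lower and 1 higher (limma), or 4 lower and 2 higher with the replicate block. That of the hepatoblast and biliary markers ran from 16.69 to 16.89 and from 16.92 to 17.04. Of these 14 markers, 2 were higher (Krt7 by 0.44, Prox1 by 0.47) and 1 lower (Afp, -0.21), or 7 higher and 1 lower with the block. Krt8, Krt19 and Krt18, which stood highest and lead this sum, did not pass the test without the block. The log2 of the summed blood markers ran from 6.24 to 6.39 and from 6.39 to 6.52. Among all genes, 10.5% were called higher and 5.91% lower, or 18.2% and 13.9% with the block. The part of these markers in the claudin differences was not tested. The endothelial markers had 0 of 4 genes called and the blood markers 0 of 3 (limma), and with the block 2 endothelial markers (Kdr and Tek) and 1 blood marker (Cd68) were called higher. At an unadjusted p under 0.05, 3 endothelial and 2 blood markers differed, against 31% of all genes. In control samples the blood markers stood at 0.90 for Ptprc, 3.22 for Hba-a1 and 6.08 for Cd68, and the endothelial markers between 1.23 and 3.33.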

How the data were processed

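RNA-seq of 4 GRHL2 and 4 pcDNA3 samples was analysed from the table of log2 values deposited by the authors. Per the methods, reads were mapped to mm10, counted on exons without regard to strand, transformed with the rlog of DESeq2 and divided by mean transcript length. The division was read as a subtraction on the log2 scale. With genes split into 10 classes by length, the 1st percentile of value plus log2 length in kb stayed between 0.28 and 0.42, whereas that of value times length ran from -14.3 to 0.47. This description opens with public data and was taken to hold for these samples too. The processing notes of the submitters name HISAT2 2.2.1, HTSeq 0.9.1 and DESeq2 1.40.2. The table is named as FPKM, but 4.81% of its values lie below 0 and they span -2.85 to 18.01. Read counts were not used here, and depth per sample is unknown.

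Groups were compared with limma 3.58.1 (R 4.3.3; mean-variance trend, no block) on all 18671 genes, with Benjamini-Hochberg adjustment over all of them and a threshold of 0.05. The model was tested on simulated data. Same-numbered samples deviated together from their group means (r from 0.474 to 0.645 across genes, each over 0.1). The replicate numbers were therefore taken as pairs, and the block is given where it changed a call. The highest r with another number was 0.436, 0.344, 0.602 and 0.500 for replicates 1 to 4, and replicate 3 correlated better with another number. The rule of r over 0.1 thus cannot tell pairing by number from a split shared by several replicates. All 8 columns matched a sample, and transcript lengths were found for 18428 genes.

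The text names the 10 claudins, the other claudin rows, Grhl2, the 5 partners with the smallest adjusted p together with Tjp1 and Ocln, and the 5 genes nearest to Cldn4 and to Cldn2, except that 1 of the nearest genes and 1 partner are not reported here. Members and lists were chosen with earlier results of these data known. Gene positions are from GENCODE M21 on GRCm38, and upstream sequences from RefSeq on GRCm38.p6, where no entry was found for Cldn8, Cldn9 and Cldn23. Alternatives were 2 rescalings of samples, the block, no trend, filters on the mean of 0 and 5, a threshold of 0.01, and each sample left out. Replicates 3 and 4 averaged was added after seeing the data.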

Additional observations from a re-analysis of the deposited data

Results flagged for a closer look

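The values of the 14 claudins, of Grhl2 and of the named partners, and the shares of Cldn2, Cldn4, Cldn6 and Cldn12, were examined in each group of 4 samples. Of these 50 groups, 2 held a sample far from the other 3 by Dixon's criterion, which chance alone meets in about 1 of 20 groups. For Cldn34c1, GRHL2 replicate 1 was the lowest at 4.252, with the other GRHL2 samples between 4.387 and 4.412. For Epcam, GRHL2 replicate 2 was the highest at 8.308, with the others between 8.129 and 8.139. The same replicate had the highest value of Grhl2 at 6.96 and of Cldn4 at 7.76.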

How the results depend on the processing

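Cldn4, Cldn6, Cldn15 and Cldn23 kept their direction and stayed past the threshold of 0.05 in every alternative that gave a test for them (limma). Their adjusted p ranged up to 0.000162, 0.0131, 0.0465 and 0.0137. At a threshold of 0.01, and with a mean of at least 5, 0 claudins were called lower, since Cldn15 then misses the threshold or is filtered out. That filter also leaves no value for Cldn7, Cldn9 and Cldn23. The difference of Cldn4 was 1.85 in replicates 1 and 2 alone and 1.58 in replicates 3 and 4 alone.

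With the replicate block, Cldn2 was called at 0.39 (adjusted p = 0.000403, limma), against a range of 0.000403 to 0.679 over its alternatives. Leaving out each sample moved its difference between 0.23 and 0.59. The block changed no other claudin call than those of Cldn2 and Cldn8, and no call of a named partner than that of Tjp1. It gave 4 partners called lower, 1 further claudin called higher, and 3396 genes higher and 2589 lower, including 3048 of the 3061 genes called without it.

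Values close to 0 changed sign. Cldn7 was at 0.0092 with an equal upper quartile and at 0.011 with an equal sum, and Cldn11 at 0.016 and 0.018. Cldn12 was at 0.0064 and 0.0079, and at 0.011 with replicates 3 and 4 averaged, which was chosen after seeing the data. With each sample left out, Cldn12 ranged from -0.043 to 0.015, being 0.015 without GRHL2 replicate 4, and Cldn11 from -0.013 to 0.0015. Cldn12 was at 0.066 in replicates 1 and 2 alone and at -0.098 in replicates 3 and 4 alone, and Cldn9 at 0.063 and -0.014.

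Both rescalings called 2 further claudins higher, Cldn8 and Cldn14, and leaving out a sample called 0 to 1 (Cldn8 without GRHL2 replicate 2 or 4). Leaving out a sample gave 1 to 2 partners lower, with Tjp1 among the 2. Among all genes, 3064 were called higher and 972 lower with an equal upper quartile, and 715 higher and 899 lower with a mean of at least 5. The count of lower genes was 521 with replicates 3 and 4 averaged and 690 to 1036 with each sample left out, and was 722, 690, 719 and 691 without GRHL2 replicates 1, 3 and 4 and pcDNA3 replicate 1. Beyond fewer genes or samples tested, the cause was not tested. Shrinkage of low genes by the rlog limits what can be seen for Cldn7, Cldn8, Cldn9, Cldn14 and Cldn23.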
